A study of Mus musculus with 32 samples.

Results

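The genes described here are 41 mouse genes whose products build the chemical synapse, taken by name from a list drawn up for this report, out of 42524 genes in a table of read counts from spinal cord RNA. All 41 were found in the table, and all 41 passed the filter on low counts at both times. By role they fall into 10 proteins of the vesicle membrane, 10 of the fusion machinery, 4 of the active zone, 4 of vesicle endocytosis, 5 of trans-synaptic adhesion and 8 of the postsynaptic density.

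RNA was sequenced from the spinal cord of 32 mice, 4 in each of 8 groups. G93A mice carry many copies of a human SOD1 gene with the G93A mutation, driven by its own human promoter and so active in most cell types, and serve as a model of amyotrophic lateral sclerosis (ALS); wild type (WT) littermates were the controls. Mice of each genotype were either untreated or given OKN-007, a nitrone compound, in drinking water, and were taken at 90 or 155 days, the ages as the sample labels state them. The groups were therefore untreated WT, OKN-007 WT, untreated G93A and OKN-007 G93A at each time; the labels give neither sex nor dose for each mouse, and the colony was described as mostly female. Each library held between 19701722 and 30138257 counts on genes. Levels are given as CPM, the count of a gene relative to the total of its library on a common scale, after scaling by the trimmed mean of M values (TMM), in order of mouse number, and 3 counts, taken as the limit of detection, correspond to at most 0.152 CPM. Fold changes are from edgeR's quasi-likelihood test on the counts, and a gene was called when its Benjamini-Hochberg adjusted p over all genes tested was below 0.05. Libraries differed in anatomical markers as well as in genotype, and the values are given beside the results they touch.

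At a chemical synapse, transmitter is packed into vesicles, the vesicles dock at the active zone, and SNARE proteins fuse them with the plasma membrane when a calcium sensor of the synaptotagmin family responds. The membrane is then retrieved by endocytosis, while neurexins and neuroligins hold the terminal against the postsynaptic density, a scaffold that anchors receptors and kinases. In the spinal cord these proteins serve the excitatory and inhibitory inputs to motor neurons and the interneuron circuits around them. RNA of vesicle proteins is found mainly in the cell bodies of the neurons that send the axon, so a cord sample reports on neurons whose cell bodies lie in the cord.

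The DNA just before a RefSeq transcript start is shown for 3 members called lower in G93A mice at 155 days, Sv2b, Slc17a6 and Vamp1. It is also shown for Homer1, whose level was not called different between genotypes, so that the promoters can be read beside the levels. Each run covers the bases before the most upstream RefSeq transcript start on GRCm38.p6, 5′ to 3′ in the direction of the gene, without any base that lies in an annotated exon. The Sv2b run is chr7:75309263-75309512 (minus strand), that of Slc17a6 chr7:51621580-51621829 (plus strand), that of Vamp1 chr6:125215331-125215550 (plus strand) and that of Homer1 chr13:93303507-93303756 (plus strand). The Homer1 run is not upstream of the whole gene as GENCODE M21 annotates it (chr13:93299635-93405129): it ends 4122 bases inside that gene, outside its exons, because a GENCODE transcript starts further upstream than the RefSeq ones. Capitals mark matches, on either strand, to 5 short motifs.
Sv2b: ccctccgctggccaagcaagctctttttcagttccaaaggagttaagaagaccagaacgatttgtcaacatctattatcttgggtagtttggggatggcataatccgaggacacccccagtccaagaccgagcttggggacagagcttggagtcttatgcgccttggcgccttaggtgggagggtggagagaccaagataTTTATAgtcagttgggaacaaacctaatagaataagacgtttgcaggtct
Slc17a6: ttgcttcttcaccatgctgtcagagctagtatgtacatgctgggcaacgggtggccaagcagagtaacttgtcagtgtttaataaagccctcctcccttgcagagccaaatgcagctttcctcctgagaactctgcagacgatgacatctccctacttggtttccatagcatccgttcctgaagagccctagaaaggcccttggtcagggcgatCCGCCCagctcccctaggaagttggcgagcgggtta
Vamp1: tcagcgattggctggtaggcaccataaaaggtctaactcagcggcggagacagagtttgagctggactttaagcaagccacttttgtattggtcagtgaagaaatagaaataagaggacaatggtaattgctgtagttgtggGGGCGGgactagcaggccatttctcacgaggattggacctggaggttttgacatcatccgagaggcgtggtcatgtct
Homer1: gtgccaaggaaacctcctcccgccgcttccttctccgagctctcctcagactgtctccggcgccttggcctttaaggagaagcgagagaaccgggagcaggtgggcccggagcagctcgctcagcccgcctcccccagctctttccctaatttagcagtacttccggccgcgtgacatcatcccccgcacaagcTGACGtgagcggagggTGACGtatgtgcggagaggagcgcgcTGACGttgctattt
The letters TGACG form the core of the cAMP response element. An E-box reads CACGTG, and the half-site searched for the neuronal repressor element RE1 was CAGCACC. The motif of a GC box is written GGGCGG. The last motif, which directs where transcription starts in some promoters, is the core of the well known AT-rich box and is spelled TATAAA. Homer1 held 3 copies of the cAMP response element core, beginning 56, 40 and 14 bases before the start. Slc17a6 and Vamp1 each held a GC box, beginning 36 and 108 bases before it, and Sv2b the AT-rich box on the opposite strand, beginning 50 bases before it. None of the 5 motifs overlapped another in these runs. RefSeq promoters were on hand for 33 of the 41 members, with 50 starts in all, and the 250 bases before each start were searched in the same way. The cAMP response element core was present in 18% of the members' promoters and 17.8% of all 32851 promoters, the E-box in 4% and 6.02%, the RE1 half-site in 6% and 5.73%, the GC box in 42% and 32.7%, and the AT-rich box in 6% and 12.4%. A match describes the letters and does not show that a factor binds there.

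The question asked first was how synaptic genes differed between G93A and WT mice at 155 days, when the model has advanced disease. In untreated mice 37 of the 41 members were lower in G93A and 0 were higher, with a median log2 fold change of -0.50; over all 18675 genes tested, 18.2% were called lower and 21.3% higher. In 33 of the 41 members every G93A mouse was below every WT mouse, against 15.4% of all genes. The members not called were Slc17a7, Vamp2, Nlgn3 and Homer1. Active zone genes had a median of -0.66 (4 of 4 lower), endocytosis genes -0.62 (4 of 4), vesicle membrane genes -0.58 (9 of 10), fusion genes -0.58 (9 of 10), postsynaptic genes -0.37 (7 of 8) and adhesion genes -0.23 (4 of 5). In a bulk sample, a changed cell composition, fewer neurons included, and less RNA per neuron cannot be told apart.

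**Figure D1:**
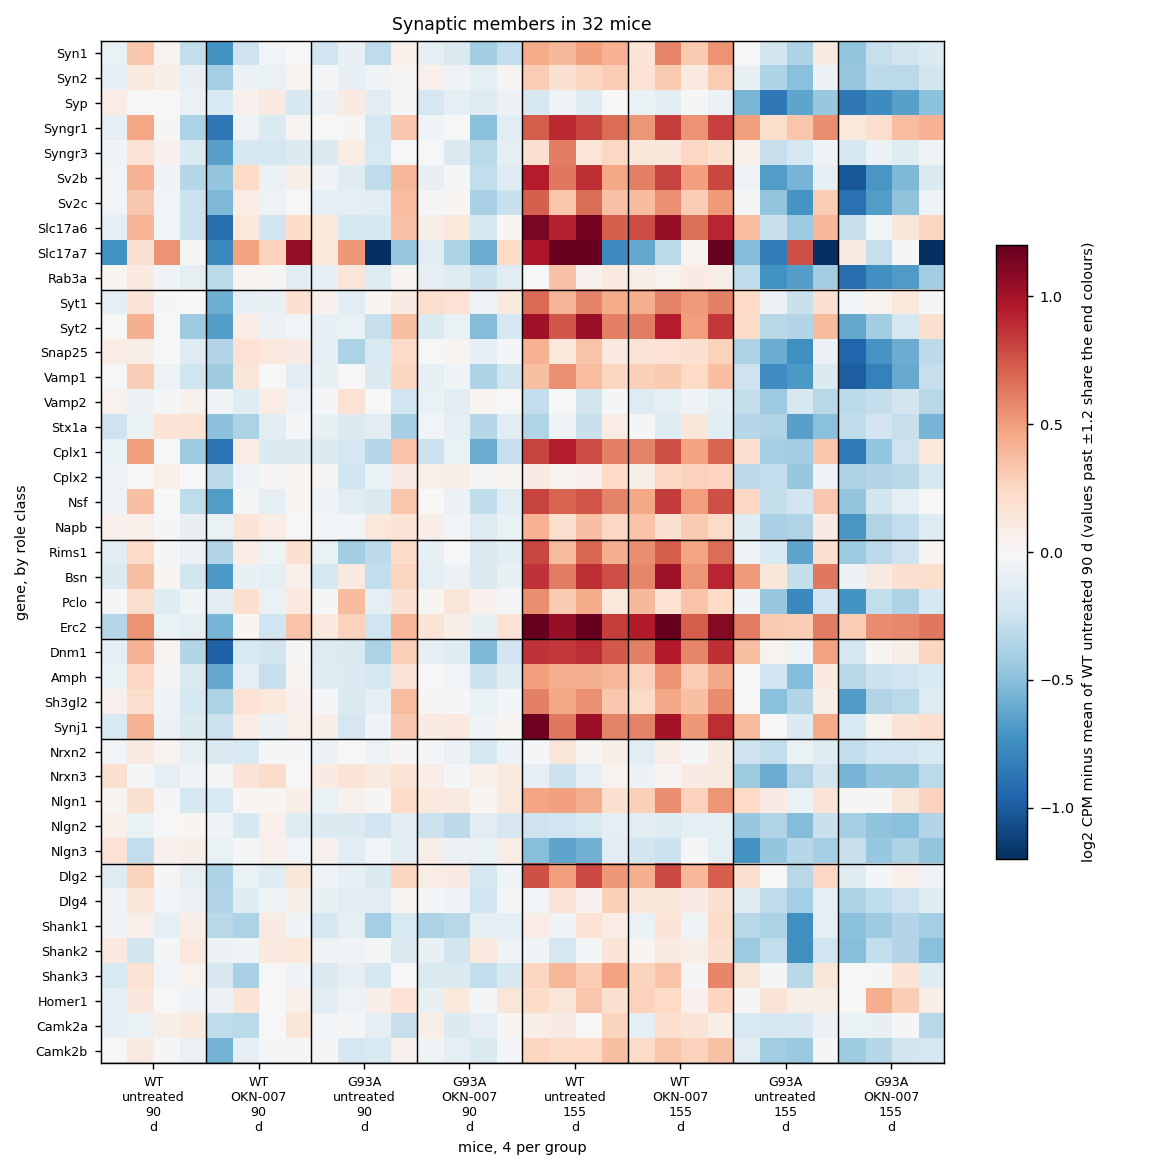
Heat map of the 41 members (rows, by role class in the order vesicle membrane, fusion machinery, active zone, endocytosis, adhesion, postsynaptic density) in 32 mice (columns, 4 per group). Colour gives the log2 CPM of each mouse minus the mean of the untreated WT mice at 90 days. Most rows are red in the 8 WT mice at 155 days. Most vesicle, fusion, adhesion and postsynaptic rows are pale or blue in the 8 G93A mice at 155 days. Of the active zone rows, Rims1 and Pclo are on average below the 90-day mean in these G93A mice, and Erc2 and Bsn above it.

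Among vesicle membrane genes, Sv2b, a glycoprotein of the vesicle that binds synaptotagmin (chr7:75114894-75309262, minus strand, GRCm38), had 148, 120, 142 and 106 CPM in the untreated WT mice at 155 days and 73.8, 48.4, 52.3 and 72 CPM in the untreated G93A mice. The groups did not overlap, and G93A mice 10 and 11 were the lowest. Its log2 fold change was -1.05 ± 0.16 (SE, n = 4 per group, edgeR quasi-likelihood test, adjusted p = 4.94e-05), the most negative among the 37 called members. Slc17a6, the vesicular glutamate transporter of most spinal excitatory neurons (chr7:51622006-51671119, plus strand), had 211, 183, 214 and 159 CPM in WT and 125, 80.2, 71.3 and 127 CPM in G93A. Here too every G93A mouse was below every WT mouse, and the log2 fold change was -0.91 ± 0.17 (edgeR, adjusted p = 0.000257).

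Slc17a7, the vesicular glutamate transporter that is typical of cortical neurons, was at the floor of the members' range, with 3.65, 6.21, 4.55 and 1.05 CPM in WT and 1.25, 0.993, 3.16 and 0.496 CPM in G93A. The groups overlapped through WT mouse 4 and G93A mouse 11, and the log2 fold change of -1.38 ± 0.59 did not pass (edgeR, adjusted p = 0.0734). Without either of these mice it passed (-1.69, adjusted p = 0.0248 without WT mouse 4, and -2.07, adjusted p = 0.0158 without G93A mouse 11). Sv2c, the relative of Sv2b found in fewer neuron types, was measured at 199, 152, 193 and 155 CPM in WT and at 119, 86.9, 74.2 and 149 CPM in G93A, a change of -0.69 ± 0.19 (adjusted p = 0.00615). G93A mouse 12 lay just under the lowest WT mouse.

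Synapsins tether vesicles to each other and to actin. Syn1 had 322, 310, 333 and 315 CPM in WT and 236, 203, 183 and 255 CPM in G93A (log2 fold change -0.53 ± 0.11, adjusted p = 0.000577). Syn2 had 176, 161, 169 and 175 CPM in WT and 133, 110, 99.9 and 135 CPM in G93A (-0.50 ± 0.09, adjusted p = 0.000252). Neither gene's groups overlapped, and in both the G93A mice 10 and 11 were below mice 9 and 12. The other vesicle members were also lower: Rab3a, the GTPase of docking vesicles, changed by -0.64, Syp, the abundant membrane protein synaptophysin, by -0.50, and the synaptogyrins Syngr3 and Syngr1 by -0.41 and -0.35.

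Of the fusion machinery, Syt2, the fast calcium sensor of spinal and brainstem terminals (chr1:134646677-134762593, plus strand), had 582, 480, 590 and 435 CPM in WT and 334, 228, 225 and 374 CPM in G93A. Its log2 fold change was -0.83 ± 0.18 (edgeR, adjusted p = 0.00106) with no overlap. Syt1, the calcium sensor that prevails in the forebrain, had 151, 125, 143 and 129 CPM in WT against 111, 89.6, 78.4 and 107 CPM in G93A, a change of -0.49 ± 0.10 (adjusted p = 0.000546). In Syt2 and Syt1 alike, all G93A mice were below all WT mice.

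Vamp1 and Vamp2 are the SNARE proteins of the vesicle. Vamp1 (chr6:125215551-125245964, plus strand) had 718, 821, 724 and 668 CPM in WT and 471, 334, 347 and 499 CPM in G93A, a log2 fold change of -0.81 ± 0.14 (edgeR, adjusted p = 0.000119). Vamp2 had 290, 357, 307 and 351 CPM in WT and 292, 263, 313 and 283 CPM in G93A. The Vamp2 groups overlapped, and its change of -0.17 ± 0.07 did not pass (adjusted p = 0.0819); it passed without WT mouse 1 (-0.22, adjusted p = 0.033) or G93A mouse 11 (-0.21, adjusted p = 0.0416), and by DESeq2 with all mice (-0.18, adjusted p = 0.0395).

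Complexins clamp and then assist the SNARE complex. Cplx1 had 1087, 1186, 1065 and 943 CPM in WT and 706, 467, 464 and 779 CPM in G93A, a change of -0.81 ± 0.18 (edgeR, adjusted p = 0.00123). Cplx2 had 319, 307, 309 and 351 CPM in WT and 239, 243, 218 and 285 CPM in G93A, a change of -0.37 ± 0.08 (adjusted p = 0.00131). Both pairs of groups were apart. The remaining fusion members were lower as well: Snap25, a SNARE protein of the plasma membrane, by -0.66, Nsf, the ATPase that takes SNARE complexes apart, by -0.66, its adaptor Napb by -0.48, and Stx1a, the syntaxin of the plasma membrane, by -0.31 with overlapping groups. Stx1a was no longer called without WT mouse 2 or 4 or G93A mouse 11 or 12 (-0.21 to -0.30).

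The active zone genes encode the scaffold at which vesicles dock. Rims1 had 120, 89.2, 110 and 92.6 CPM in WT and 65.6, 60.4, 44.1 and 79.1 CPM in G93A (log2 fold change -0.71 ± 0.14, edgeR, adjusted p = 0.000555). Pclo, the giant scaffold piccolo, had 127, 107, 118 and 94.6 CPM in WT and 83.6, 63.2, 50.5 and 73.8 CPM in G93A (-0.71 ± 0.13, adjusted p = 0.000312). Neither overlapped. Its partner Bsn (bassoon) changed by -0.48 and overlapped between groups, and was not called without G93A mouse 10 or 11 (-0.42 and -0.33). Erc2, which links the scaffold to the membrane, changed by -0.60.

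Genes of endocytosis moved to a like extent. Synj1, a phosphatase that sheds the clathrin coat, had 246, 170, 223 and 166 CPM in WT and 143, 110, 97.6 and 149 CPM in G93A (log2 fold change -0.67 ± 0.15, edgeR, adjusted p = 0.00172). Sh3gl2, an endophilin that bends the membrane, had 227, 206, 219 and 187 CPM in WT and 149, 106, 117 and 157 CPM in G93A (-0.65 ± 0.12, adjusted p = 0.000364). In each gene all G93A mice were below all WT mice. Dnm1, the neuronal dynamin, changed by -0.60 and Amph, which recruits it, by -0.56.

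Adhesion genes had the smallest median change. Nlgn1, the neuroligin of excitatory synapses, had 35.5, 36, 34.6 and 29.2 CPM in WT and 30.1, 27.3, 24.2 and 28.6 CPM in G93A (log2 fold change -0.28 ± 0.10, edgeR, adjusted p = 0.0264). Nrxn3, a presynaptic neurexin, had 179, 160, 176 and 197 CPM in WT and 143, 127, 149 and 164 CPM in G93A (-0.27 ± 0.08, adjusted p = 0.0128). Both were called although a G93A mouse lay above the lowest WT mouse. Nlgn3, found at excitatory and inhibitory synapses, had 29.9, 27.5, 28.6 and 38.8 CPM in WT and 26, 31, 33.7 and 32.2 CPM in G93A. Its groups overlapped fully, with a change of -0.01 ± 0.10 (adjusted p = 0.962). Nrxn2 changed by -0.23 and Nlgn2, the neuroligin of inhibitory synapses, by -0.19, and both were called lower with no overlap. These calls were close to the threshold: Nlgn1 was lost without any of WT mice 1, 2 and 3 or G93A mice 10 and 11, Nlgn2 without any of WT mice 3 and 4 or G93A mice 9, 10 and 11, Nrxn3 without WT mouse 4 or G93A mouse 10, and Nrxn2 without G93A mouse 10. Their fold changes then ran from -0.22 to -0.27 in Nlgn1, from -0.15 to -0.19 in Nlgn2, from -0.20 to -0.21 in Nrxn3, and stood at -0.19 in Nrxn2.

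In the postsynaptic density, Dlg2, a scaffold of the PSD family, had 120, 99.7, 122 and 101 CPM in WT and 80.4, 70.1, 55.7 and 83.6 CPM in G93A (log2 fold change -0.59 ± 0.12, edgeR, adjusted p = 0.000584). Camk2b and Camk2a encode the subunits of a calcium-dependent kinase. Camk2b had 395, 385, 390 and 426 CPM in WT and 301, 248, 244 and 325 CPM in G93A (-0.50 ± 0.09, adjusted p = 0.000171), and Camk2a had 133, 134, 125 and 151 CPM in WT and 110, 109, 109 and 119 CPM in G93A (-0.26 ± 0.08, adjusted p = 0.0185). None of these 3 genes overlapped between genotypes. Homer1, which couples glutamate receptors to internal calcium stores, had 22.2, 21.1, 24 and 21.7 CPM in WT and 19.3, 21.3, 19.9 and 20.1 CPM in G93A, a change of -0.13 ± 0.09 that did not pass (adjusted p = 0.268). Dlg4, the scaffold that defines the density, changed by -0.35, and the scaffolds Shank1, Shank2 and Shank3 by -0.44, -0.38 and -0.35, all called lower. Camk2a was not called without WT mouse 4 or G93A mouse 10 (-0.19 and -0.24), nor Shank3 without WT mouse 4 or G93A mouse 10 or 11 (-0.26 to -0.33).

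Mice given OKN-007 provide the genotype comparison in other animals. In them 34 of 41 members were lower in G93A than in WT at 155 days and 0 were higher, with a median of -0.57, against 18.2% of genes called lower and 23.3% called higher; 36 members had every G93A mouse below every WT mouse, against 21.9% of genes. The 34 members were all among the 37 called in untreated mice, and Stx1a, Camk2a and Shank3 made up the rest of the 37. These 3 were near the threshold in OKN-007 mice, and no difference between treatments follows from their calls. Stx1a was called there with RLE factors, with all 32 mice in one fit, with only the compared groups, without the mice of high Schwann cell score and by DESeq2 (-0.27 to -0.36), and Shank3 without the filter, with all 32 mice, with only the compared groups and without the mice of high liver score (-0.28 to -0.35). Sv2b again had the most negative log2 fold change (-1.23 ± 0.16, edgeR, adjusted p = 7.2e-06). It had 117, 135, 109 and 134 CPM in WT and 38, 47.4, 53 and 68.3 CPM in G93A. G93A mouse 13 was the lowest in Sv2b, as it was in Syt2 (-0.94), Cplx1 (-0.93), Vamp1 (-0.91) and Sv2c (-0.89). Vamp2 (-0.15), Nlgn3 (-0.21), Slc17a7 (-0.88) and Homer1 (0.04) were not called in these mice either, although Vamp2 passed by DESeq2 (adjusted p = 0.0414) and with only the compared groups (0.0225), and Nlgn3 with all 32 mice in one fit (0.0454) and with only the compared groups (0.0199). Calls that a single mouse decided here were those of Nlgn1 (lost without WT mouse 6 or 8 or G93A mouse 13 or 14, -0.22 to -0.26), Nrxn2 (lost without WT mouse 6 or 8, -0.18 in both) and Syngr3 (lost without WT mouse 6, 7 or 8 or G93A mouse 13 or 15, -0.24 to -0.27). Camk2a was called without WT mouse 5 (-0.23) and Shank3 without WT mouse 7 or G93A mouse 15 (-0.36 and -0.33). Slc17a7 rested on WT mouse 8, without which it was 0.051.

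**Figure D2:**
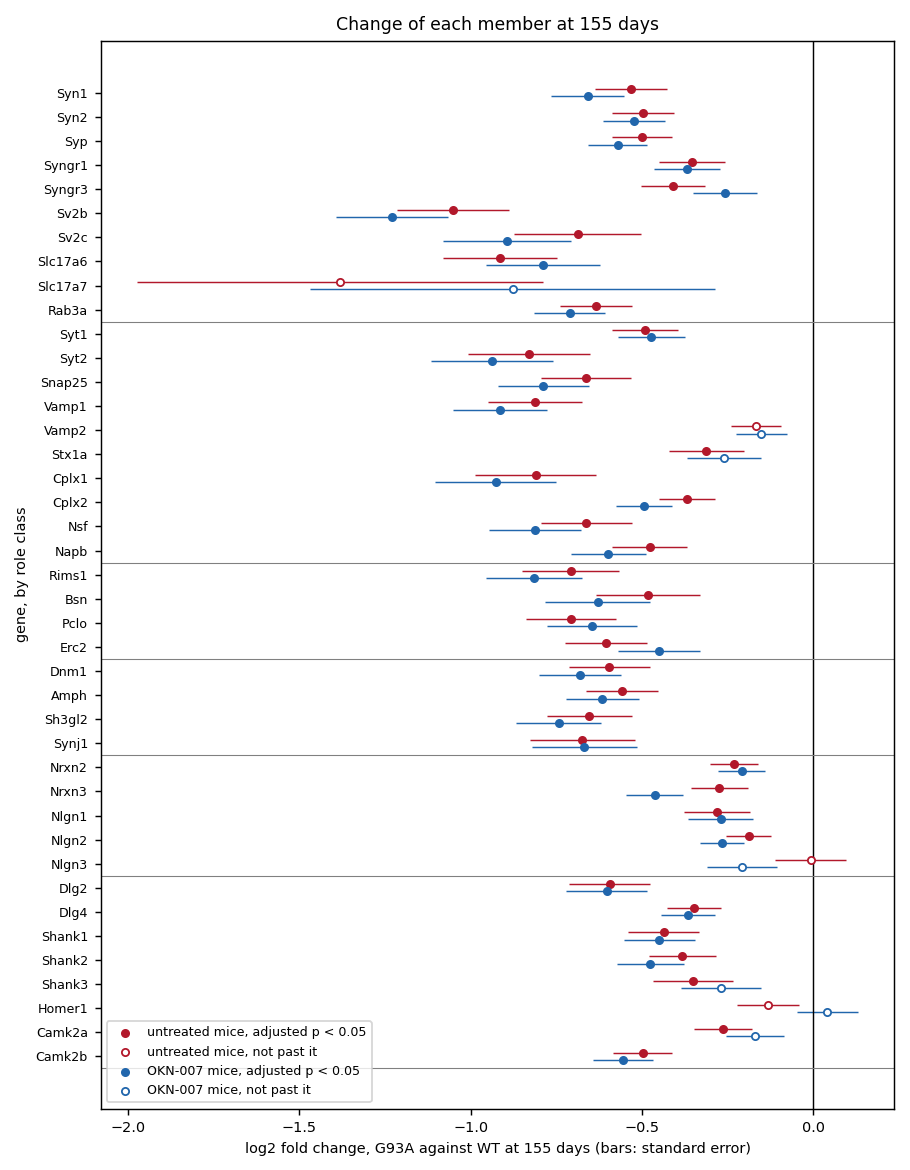
Log2 fold change of each member, G93A against WT at 155 days, with its standard error, in untreated mice (red) and in OKN-007 mice (blue), 4 mice per group. Filled circles passed an adjusted p of 0.05 over all genes tested, 37 members in untreated mice and 34 in OKN-007 mice, and all of these lie left of 0.

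Whether related genes changed to the same extent was tested on 7 pairs in each treatment by the log2 ratio of their CPM within a mouse, in an exact two-sided permutation test over the 70 splits of 4 against 4 mice, for which 0.0286 is the smallest p possible. The ratio of Vamp1 to Vamp2 was lower in G93A by -0.67 in untreated mice and by -0.78 in OKN-007 mice, with no overlap between genotypes in either (exact permutation p = 0.0286 in both, adjusted p = 0.1 over 14 comparisons). Camk2b relative to Camk2a was lower by -0.25 (exact p = 0.0286, no overlap) and by -0.39 (exact p = 0.0857, overlapping). Sv2c relative to Sv2b was higher by 0.33 in both treatments (exact p = 0.0571 in untreated and 0.0286 in OKN-007 mice). Syt2 relative to Syt1 differed by -0.35 and -0.48, Cplx1 relative to Cplx2 by -0.47 in both, Syn2 relative to Syn1 by 0.04 and 0.13, and Slc17a7 relative to Slc17a6 by -0.42 and 0.23; in these 4 pairs the genotypes overlapped. No ratio passed after adjustment, but 4 of the 14 comparisons were at the smallest possible p, and an adjusted p below 0.05 would have needed at least 9 there, so this miss says little about the ratios.

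Levels between genes can be set side by side only per length. Per kilobase of annotated exon, Cplx1 was the most abundant member in untreated WT mice at 155 days at 489 CPM per kb, followed by Syp at 322 and Snap25 at 290, and Slc17a7 the least at 0.717 after Homer1 at 1.86. Summed over the 41 members, the level was 13457 ± 391 CPM (SD, n = 4) in untreated WT and 8924 ± 1390 CPM in untreated G93A mice at 155 days, and 13058 ± 660 and 8133 ± 1005 CPM in the OKN-007 mice. The lowest WT mouse stood at 12421 CPM and the highest G93A mouse at 10534 CPM, so the genotypes were apart. The spread among G93A mice was wider than among WT mice in the untreated groups.

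Among 97 other synaptic genes listed by the same 6 roles, 96 were tested in untreated mice at 155 days; 58 were lower and 7 higher in G93A (18.2% and 21.3% of all genes), with a median log2 fold change of -0.33, and 58 and 8 in OKN-007 mice (18.2% and 23.3% of all genes), with a median of -0.36. The most negative log2 fold changes were in Syn3, the synapsin that is expressed early in development (-0.83), and the dynamin Dnm3 (-0.79). Next came the secreted synapse organizer Cbln2 (-0.77), the adaptor Lin7b (-0.76) and the Rab3 effector Rph3a (-0.75). Higher in G93A were Syngr2 (1.18), Homer3 (0.76), Dnm2 (0.73), Snap23 (0.67) and Vamp3 (0.51), of which Syngr2, Dnm2, Snap23 and Vamp3 are relatives of members that many non-neuronal cells use. In all 10 of these genes, taken from the ends of the range, the untreated genotypes did not overlap (over all genes, G93A was below in 15.4% and above in 17.4%), and all 10 were called in the same direction in OKN-007 mice.

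Cell type markers and regional markers moved between the same groups. Of 10 pan-neuronal markers such as Rbfox3 and Tubb3, 8 were lower in untreated G93A mice at 155 days (median -0.46), and their summed level ran from 4976 to 5718 CPM against 6680 to 7473 CPM in WT. Motor neuron markers such as Chat and Isl1 were lower in 9 of 10 (median -0.76), at 1087 to 1623 CPM against 2723 to 3512 CPM. Microglia markers were higher in 10 of 10 (median 2.56), at 1783 to 3438 CPM against 373 to 484 CPM, and astrocyte markers in 7 of 9 (median 0.44), at 15616 to 19266 CPM against 6487 to 7269 CPM. Oligodendrocyte markers were higher in 2 of 9 (median 0.03), near the share of all genes called higher, at 21642 to 25871 CPM against 21863 to 24022 CPM. Of all genes tested in untreated mice, 18.2% were called lower and 21.3% higher. In OKN-007 mice the neuronal list was lower in 9 of 10 (median -0.53), the motor neuron list in 10 of 10 (-1.21) and the microglia list higher in 10 of 10 (2.74), against 18.2% of all genes called lower and 23.3% called higher. No marker of these 5 lists was at 0 in a group, and the part of cell composition in the synaptic result was not tested.

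The level of cord sampled is reflected by the Hox genes of paralog groups 9 to 11, which are expressed in its caudal segments. Of 9 such genes, 4 were lower in untreated and 6 in OKN-007 G93A mice at 155 days (medians -1.28 and -1.50), against 18.2% of all genes in each treatment. Their summed level ran from 60 to 204 CPM in untreated G93A mice against 223 to 275 CPM in WT, and from 86.1 to 170 CPM against 256 to 312 CPM in OKN-007 mice. The mean log2 CPM of the Hox genes was -0.11, -0.02, 3.28 and 3.30 in untreated G93A mice 9 to 12, while that of the synaptic members was 6.93, 6.68, 6.63 and 6.98 in the same order, so that of the mice with low Hox levels mouse 9 had the second highest synaptic level and mouse 10 the third. In OKN-007 G93A mice 13 to 16 the Hox mean was 0.96, 3.41, 3.11 and 2.56 and the synaptic mean 6.58, 6.72, 6.79 and 6.84, so that mouse 13 was the lowest in both, and its synaptic mean was the lowest of the 16 mice at 155 days. With the Hox score as a covariate, 27 members were lower in untreated mice and 32 in OKN-007 mice, against 11.3% and 13.2% of all genes, and without the mice whose score was under 1 (untreated G93A mice 9 and 10 and OKN-007 G93A mouse 13) 30 and 32 were, against 12.5% and 14.8%. In WT mice the Hox mean ran from 3.37 to 4.39 (untreated) and from 4.19 to 4.44 (OKN-007), above every G93A mouse of the same treatment. Neither refit can therefore separate cord level from genotype, and the 2 cannot be told apart here. Traces of other tissues were seen in single libraries: Schwann cell markers were high in OKN-007 WT mouse 6 and OKN-007 G93A mouse 14, and liver genes in untreated G93A mouse 12 and OKN-007 G93A mouse 15; between genotypes, 1 of 4 Schwann cell markers tested (Egr2) was higher in G93A in each treatment, and 0 of 5 liver genes in untreated and 1 of 5 (Apoa1) in OKN-007 mice (21.3% and 23.3% of all genes were higher in the 2 treatments). Without the former 2 mice 37 and 32 members were lower (16.7% and 14% of all genes), and without the latter 36 and 34 (17.9% and 17.3%).

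**Figure D3:**
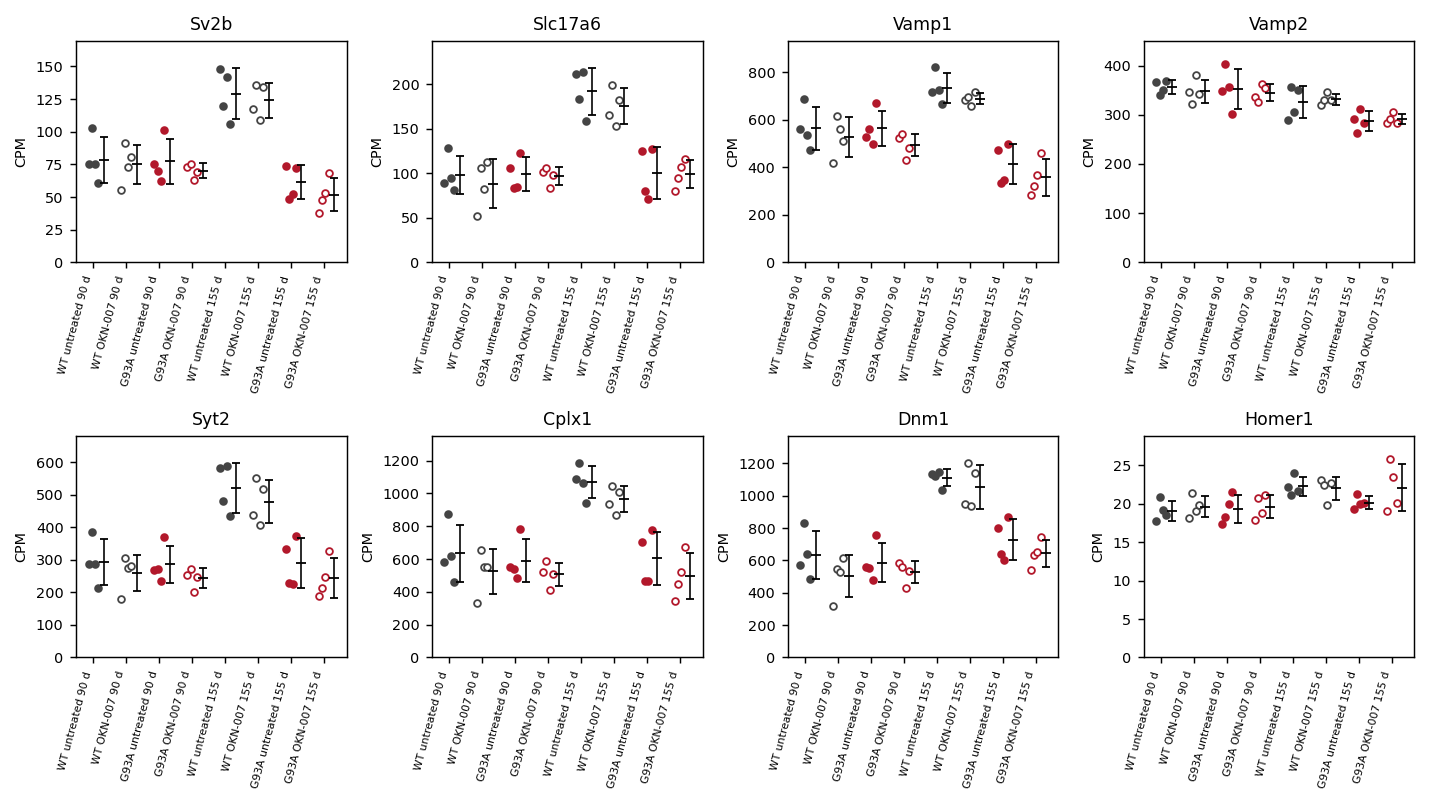
CPM of 8 members in each of 32 mice, by group, with the group mean and SD beside the points; WT is grey, G93A is red, and open circles are OKN-007 mice. In Sv2b, Slc17a6, Vamp1, Syt2, Cplx1 and Dnm1 the 8 WT mice at 155 days are above the 8 G93A mice of that time, while in Vamp2 and Homer1 the groups overlap in untreated mice.

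OKN-007 was compared with no treatment within each genotype. At 155 days 0 of 41 members were called in G93A and 0 in WT (edgeR quasi-likelihood test), as were 0% of all 18675 genes in each; DESeq2 called 0 members in both. At an unadjusted p below 0.05 there were 0 members in G93A, against 4.04% of genes, and 1 in WT, against 2.94%. The median log2 fold change of the members was -0.05 in G93A, from -0.31 in Sv2c to 0.14 in Homer1, and -0.05 in WT, from -0.44 in Slc17a7 to 0.29 in Nlgn3. Nlgn3 was the single member with a low unadjusted p (0.0105 by edgeR, adjusted p = 1): it had 36.8, 35.7, 42 and 39.8 CPM in OKN-007 WT mice, which overlapped the untreated WT mice through mouse 4. Sv2b differed by -0.25 ± 0.16 (SE) between OKN-007 and untreated G93A mice, with overlapping groups.

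The effect of OKN-007 was then compared between genotypes as an interaction. No member passed (0 of 41, and 0 of 18675 genes, by edgeR; 0 members by DESeq2), and at an unadjusted p below 0.05 there were 0 members against 2.34% of genes. The interaction ranged from -0.21 in Sv2c to 0.50 in Slc17a7, with a median of -0.06. For Sv2b it was -0.18 ± 0.23 and for Vamp1 -0.10 ± 0.19 (SE). The mean log2 CPM over the members was 6.80 ± 0.18 (SD, n = 4) in untreated and 6.73 ± 0.11 in OKN-007 G93A mice at 155 days, a difference of -0.07 that was smaller than the spread within the groups.

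**Figure D4:**
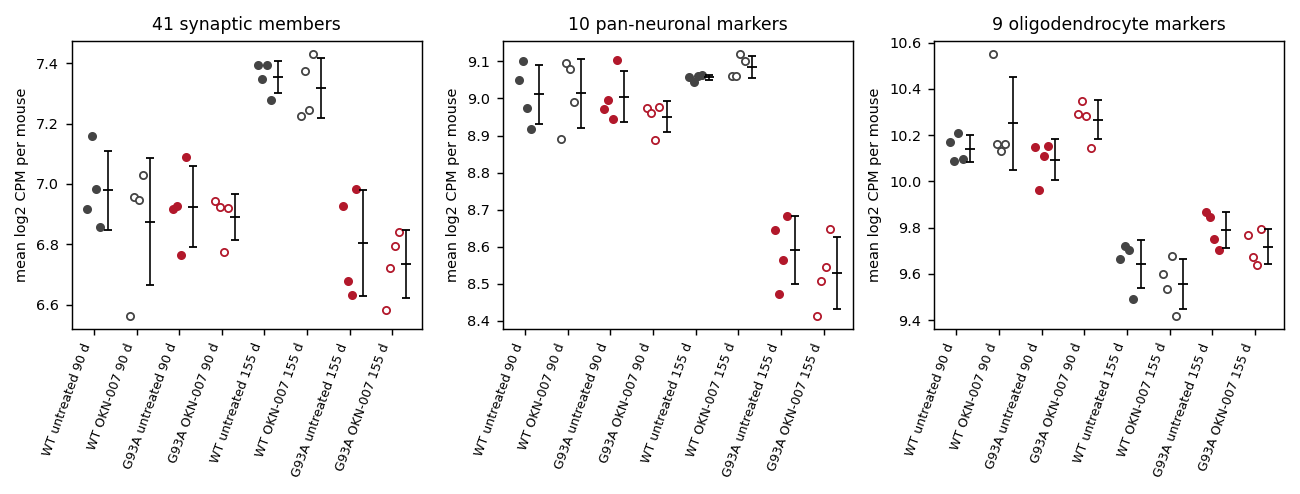
Mean log2 CPM per mouse over the 41 synaptic members (left), 10 pan-neuronal markers (middle) and 9 oligodendrocyte markers (right) in the 8 groups, with group means and SDs. The members stand at 7.35 in untreated WT and 6.80 in untreated G93A mice at 155 days, and the vertical axes do not start at 0.

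At 90 days 0 of 41 members were called between genotypes in untreated mice and 0 in OKN-007 mice, as were 0% of 18899 genes in each, and 0 members were called for OKN-007 in G93A or WT mice or for the interaction, by edgeR or by DESeq2. In untreated mice 2 members had an unadjusted p below 0.05, against 5.96% of genes. Shank1 had 149, 161, 143 and 163 CPM in WT and 133, 143, 116 and 136 CPM in G93A (log2 fold change -0.23 ± 0.10; edgeR's quasi-likelihood test gave 0.0401 unadjusted and an adjusted p of 0.822), and Nlgn2 had 174, 158, 166 and 170 CPM in WT and 149, 149, 143 and 153 CPM in G93A (-0.17 ± 0.07; 0.0236 unadjusted and an adjusted p of 0.822). The 2 genes were the only members whose untreated genotypes did not overlap, against 2.4% of genes. In OKN-007 mice 0 members had such a p for genotype (3.95% of genes). For OKN-007 against no treatment there were 0 in G93A mice (5.56% of genes) and 2 in WT mice (4.07%), Syngr3 at -0.30 and Stx1a at -0.26, and for the interaction 0 (2.81%). The mean log2 CPM over the members was 6.98 ± 0.13 and 6.92 ± 0.13 (SD, n = 4) in untreated WT and G93A mice, and 6.87 ± 0.21 and 6.89 ± 0.08 in OKN-007 mice.

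Whether the genotype difference grew between the times was tested in a single fit of all 32 mice. In untreated mice the difference at 155 days was below that at 90 days in 22 of 41 members (edgeR, adjusted p below 0.05) and above it in 0, with a median of -0.48, against 8.34% of 19829 genes called lower. In OKN-007 mice it was in 31 of 41, with a median of -0.66, against 9.97% of genes. Sv2b differed by -1.04 ± 0.25 and -1.16 ± 0.25 (SE) in the 2 treatments, Slc17a6 by -0.95 ± 0.27 and -0.96 ± 0.27, and Vamp1 by -0.83 ± 0.20 and -0.85 ± 0.20. Cplx1 (-0.72), Dnm1 (-0.50) and Syn1 (-0.40) did not pass in untreated mice. These counts rested on single mice in the untreated comparison: they were 13, 13 and 12 without WT mouse 4 at 90 days, G93A mouse 12 at 90 days or G93A mouse 11 at 155 days, and without the 6 mice of low Hox score (the 3 named above and, at 90 days, OKN-007 WT mouse 8 and OKN-007 G93A mice 13 and 14) they were 13 in untreated and 18 in OKN-007 mice (5.09% and 3.48% of all genes). For the fits without a single mouse no share over all genes is given. Their lower counts are therefore not shown to be particular to the members.

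Levels at 155 and 90 days were also compared within each genotype, a comparison added after these values were seen. In untreated WT mice 25 of 41 members were higher at 155 days and 2, Nlgn3 and Nlgn2, lower, with a median log2 fold change of 0.36, against 15.3% of genes called higher and 9.61% lower. In OKN-007 WT mice 25 were higher and 0 lower, with a median of 0.40, against 17.8% of genes called higher. In untreated G93A mice 0 were higher and 10 lower, with a median of -0.15, against 12.8% of genes called lower and 21% higher, and in OKN-007 G93A mice 2 were higher and 14 lower, with a median of -0.15, against 13.1% lower and 19.8% higher. These comparisons use the same mice as the genotype comparisons and are not separate evidence.

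Slc17a6 was measured at 89.1, 128, 94.2 and 80.9 CPM in untreated WT mice at 90 days, below all 4 WT mice at 155 days, and at 106, 83.5, 84.8 and 123 CPM in untreated G93A mice at 90 days, which overlapped those at 155 days. Its log2 fold change with time was 0.97 ± 0.19 in WT (edgeR, adjusted p = 0.000801) and 0.02 ± 0.19 in G93A. Syt2 followed the same course, from 293 to 522 CPM on average in WT (0.83 ± 0.19) and from 286 to 290 CPM in G93A (0.02 ± 0.19). Dnm1 went from 634 to 1110 CPM in WT (0.81 ± 0.17) and from 586 to 727 CPM in G93A, which did not pass. Erc2 had the largest rise in WT of the members called (1.05 ± 0.16).

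Other members were lower with time in G93A mice. Syp changed by -0.10 in untreated WT mice, which did not pass, and by -0.59 ± 0.08 in untreated G93A mice (edgeR, adjusted p = 2.03e-06), from 1762 to 1174 CPM on average. Nrxn3 changed by -0.11 and -0.53 ± 0.08, and Rab3a by 0.13 and -0.50 ± 0.10. Vamp1, which rose by 0.38 in WT, fell in G93A by 0.45 on the log2 scale, and Pclo, which rose by 0.36, fell by 0.47. Sv2b rose in WT from 78.5 to 129 CPM (0.72 ± 0.17), and its change in G93A, from 77.2 to 61.6 CPM, did not pass (-0.33 ± 0.17, adjusted p = 0.151).

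**Figure D5:**
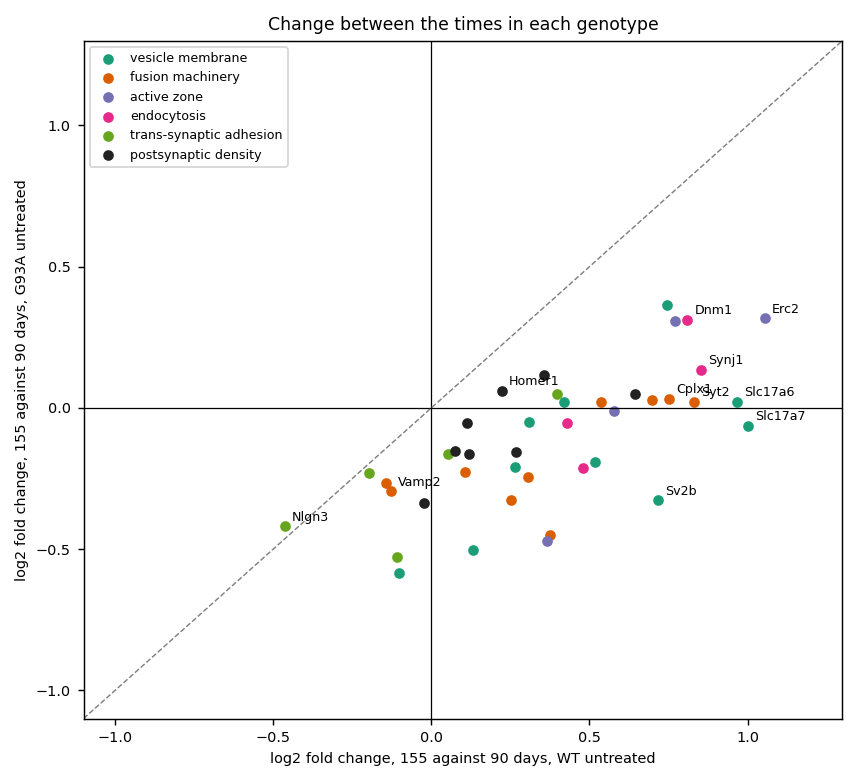
Log2 fold change of each of the 41 members between 155 and 90 days in untreated WT mice (horizontal) against untreated G93A mice (vertical), coloured by role class, with a dashed line where the 2 are equal. All but Nlgn3 lie below the line, and most members to the right of 0 in WT stand near or below 0 in G93A.

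Some other markers moved with time in WT mice as well. In untreated WT mice the pan-neuronal list had 2 of 10 markers higher and 1 lower (median 0.05), the motor neuron list 1 higher and 1 lower (0.21), the oligodendrocyte list 8 of 9 lower (-0.41; summed level 33524 to 40378 CPM at 90 days and 21863 to 24022 CPM at 155 days) and the caudal Hox list 0 of 9 called (0.66; 147 to 218 CPM and 223 to 275 CPM). Of all genes, 15.3% were called higher and 9.61% lower, so the pan-neuronal and motor neuron counts were near those shares. The astrocyte list had 1 of 9 higher and 3 lower (-0.12), and its summed level did not overlap between the times (7989 to 9030 CPM at 90 days and 6487 to 7269 CPM at 155 days). In OKN-007 WT mice 3 of 10 pan-neuronal markers were higher and 1 lower (median 0.0049), and 3 of 10 motor neuron markers were higher (0.32; summed level 1599 to 2487 CPM at 90 days and 2941 to 3307 CPM at 155 days). The shares of all genes called in these mice were 17.8% higher and 13.5% lower. In the same mice 3 of 9 caudal Hox genes were higher and 1 lower (1.05; 163 to 234 CPM and 256 to 312 CPM), 8 of 9 oligodendrocyte markers lower (-0.64; 36742 to 54081 CPM and 20621 to 23972 CPM), 4 of 9 astrocyte markers lower and 1 higher (-0.12; 8114 to 10044 CPM and 6287 to 6689 CPM) and 7 of 10 microglia markers lower (-0.56). What part these markers' changes had in the rise of the members in WT mice was not tested. Schwann cell markers were high at 90 days in WT mouse 3 and G93A mouse 10 (1154 and 217 CPM summed), and without these and the 2 mice named above 19 members were called with time in untreated WT mice. Without WT mouse 4 at 90 days 15 were called, 13 higher and 2 lower. In untreated G93A mice the count of 10 was 16 without mouse 12 at 155 days and 6 without the mice of low Hox score. No share over all genes is given for these recomputed counts, so their shifts are not shown to be particular to the members. The labels give no batch for either time, so age and any batch between the times cannot be told apart.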

How the data were processed

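Spinal cord RNA of 32 mice was measured by stranded, poly(A)-selected RNA sequencing. The values used are whole-number read counts per gene as deposited, made by the authors with no normalization; the processing notes name FastQC, STAR, featureCounts and edgeR and the mouse builds GRCm39 and mm39 beside the human hg38, whereas the study's methods describe Trimmomatic, STAR and HTSeq with an older GENCODE annotation on GRCm38. As 1306 gene identifiers in the table are newer than GENCODE M21, that older annotation cannot have made this table, and the exact version is not given in the sources used here. Gene coordinates printed are those of GENCODE M21 on GRCm38, used for description only. Every column was mapped to a mouse (0 left unmapped), and groups came from the sample titles.

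Counts were analysed in R 4.3.3 with edgeR 4.0.16 (filterByExpr, TMM factors, quasi-likelihood test), with the 16 mice of a time as 4 groups, and with all 32 mice for comparisons between times. P-values were adjusted by the Benjamini-Hochberg method over all genes tested. Log2 CPM used a prior count of 2. Whether mice of a group came from separate litters is not stated, and p-values test differences between groups against the spread between these mice. Mean levels over the members carry no test. DESeq2 1.42.0, relative log expression (RLE) factors, no filter, a stricter threshold, a Hox covariate, other sets of samples, a block on mouse number and leaving out each mouse were the alternatives; leaving out mice by Hox, Schwann cell or liver score and the comparison of times within a genotype were added after the data were seen. The members, marker lists and tests were chosen with earlier results of these data known. All 41 members are named; values in each mouse are given for the 2 called members with the largest change at 155 days in each role class, for members not called there and for 7 related pairs, and for other members singled out after their values were seen. Of the other synaptic genes, the 5 with the most negative and the 5 with the most positive log2 fold change among those called are named. Libraries held 19701722 to 30138257 counts. Counting error, taken from the lowest count of a group, was more than 0.5 times the SD between mice in 38 of 328 member-by-group values and at least as large as the SD in 4.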

Additional observations from a re-analysis of the deposited data

Results flagged for a closer look

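In 12 of 336 groups of 4 mice (41 members and their mean, in 8 groups) 1 mouse stood apart from the other 3 by Dixon's test at the 95% level, where chance gives 16.8. At 90 days, OKN-007 WT mouse 5 was low in Syngr3 (30.9 CPM, next mouse 41.9) and Snap25 (1290 CPM, next 1770). The mean log2 CPM of the members in this mouse was also the lowest of its group (6.56, next 6.95), though not past the test. Its oligodendrocyte marker mean was the highest of the group (10.6, next 10.2). Also at 90 days, untreated WT mouse 2 was high in Synj1 (147 CPM, next 105) and Dlg4 (264 CPM, next 233). Untreated G93A mouse 12 was high in Sv2c (156 CPM, next 112) and Amph (136 CPM, next 110). OKN-007 G93A mouse 15 at 90 days was low in Nlgn1 (25.9 CPM, next 27.6), in Dlg4 (203 CPM, next 233) and in the mean log2 CPM of the members (6.78, next 6.92). At 155 days, Slc17a7 was high in OKN-007 WT mouse 8 (6.86 CPM, next 1.87), Cplx2 was low in OKN-007 WT mouse 5 (313 CPM, next 354), and Camk2a was high in untreated G93A mouse 12 (119 CPM, next 110).

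The genotype difference itself differed between the times in 22 members in untreated mice and in 31 in OKN-007 mice. Each count is from the edgeR test of that difference. All these members were called lower, against 8.34% and 9.97% of all genes. When single mice were left out, the counts ran from 12 to 29 and from 23 to 34. Without the mice of low Hox score they were 13 and 18, against 5.09% and 3.48% of all genes. Whether the counts differ between untreated and OKN-007 mice was not tested.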

How the results depend on the processing

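Each count of called members was recomputed under the alternatives. Leaving out a mouse aside, 142 of 152 recomputed counts stayed within 1.5 times the reported count. That total includes the comparisons with 0 members called, where an unchanged 0 was counted as staying. All 10 counts that moved belonged to comparisons between times. The genotype counts at 155 days stayed between 27 and 38 in untreated mice and 31 and 38 in OKN-007 mice, and between 30 and 37 and 31 and 35 when a mouse was left out. The comparisons with 0 members called kept 0 under every alternative run.

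The comparisons between times moved more. At an adjusted p below 0.01 the change of the genotype difference was called in 9 (untreated) and 20 (OKN-007) members, the change with time in untreated WT mice in 17, and that in OKN-007 G93A mice in 9. Without the mice of low Hox score these were 13 and 18 for the genotype difference and 6 and 10 for untreated and OKN-007 G93A mice. Without the mice of high liver score, untreated G93A mice gave 16. When single mice were left out, the genotype difference in untreated mice ran from 12 to 29, the change with time in untreated WT mice from 15 to 28 and in untreated G93A mice from 9 to 16. For most of these counts, and for those with a block below, no share over all genes is given. A changed count is therefore not shown to be particular to the members. The cause was not tested.

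A block on mouse number could be fitted only between times. It gave 23 and 32 members for the genotype difference (22 and 31 without it) and 16 in place of 10 for untreated G93A mice. Deviations of same-numbered mice at the 2 times were weakly correlated (from -0.215 to 0.134, over 0.1 in 2 of 16 pairs). No reference value was computed, so these correlations cannot decide whether the number pairs the mice.

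Reversals were seen in members that were not called. Nlgn3 in untreated mice was 0.086 with the Hox covariate, 0.096 without the mice of low Hox score and -0.054 to 0.13 without single mice. Homer1 in OKN-007 mice was -0.052 without the mice of high Schwann cell score, -0.0096 without those of high liver score and -0.061 to 0.095 without single mice, and Slc17a7 ran from -1.13 to 0.051. Its ratio to Slc17a6 ran from -1.02 to 0.093 in untreated and from -0.031 to 0.75 in OKN-007 mice. Of the called members, Bsn, Camk2a, Napb, Nlgn1, Nlgn2, Nrxn2, Nrxn3, Shank3, Stx1a, Sv2c and Syngr1 in untreated mice and Nlgn1, Nrxn2 and Syngr3 in OKN-007 mice missed the threshold under at least 1 alternative, with an unchanged direction. The fit of the compared groups alone was not run for interactions. Calls were gained too: Vamp2 by DESeq2 in both treatments, Slc17a7 in untreated mice without the filter (-1.38, adjusted p = 0.0021), and in OKN-007 mice Vamp2, Nlgn3, Stx1a and Shank3 under the settings named beside them above. Depth limits Slc17a7 (lowest count 4) most. Counting error was at least as large as the SD between mice for Homer1 in untreated G93A mice at 155 days (lowest count 486), Nlgn2 in OKN-007 WT mice at 155 days, and Bsn and Nlgn1 in OKN-007 G93A mice at 90 days. For Slc17a7 it stayed below the SD in every group.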
